A study of Homo sapiens with 4 samples.

Results

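Most of the long arm of chromosome 9 was described here by its H3K9me2, histone H3 carrying dimethylated lysine 9, in K562 cells, a human line established from a myeloid leukemia. The regions described are the broad H3K9me2 peaks on chromosome 9 that start at or beyond 70 Mb of hg19, which were 23322 of the 1000000 peaks in 4 lists. The arm was chosen by its measured peak coverage, by the step in it and by the levels around ABL1, each compared between the groups below. There were 6056 and 6064 such peaks in the 2 libraries of cells edited by CRISPR with a guide against CUX1 (gCUX1, labelled as knockouts), and 5589 and 5613 in the 2 libraries with a guide against HPRT (gHPRT, the control). All 4 libraries came from K562 cells in the same medium and with the same antibody. In CUT&RUN, the assay used, a nuclease follows the antibody to nucleosomes that carry the mark, and the fragments it sets free are sequenced. The study asked whether H3K9me2 is reduced in cells that lack CUX1, a homeodomain transcription factor.

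H3K9me2 is laid down mainly by the methyltransferases G9a and GLP, and it lies over broad, mostly silent stretches of chromatin at low density rather than in sharp peaks. Distal 9q carries ABL1, which encodes a tyrosine kinase. In K562 the 3′ part of ABL1 is joined to BCR from chromosome 22, the fusion that defines chronic myeloid leukemia. The line carries extra copies of the fusion, joined to sequence of chromosomes 22 and 13. The deposited files hold no measure of DNA copy number, of CUX1 itself or of the reads behind a peak, and read depth is unknown. The labels do not say that libraries of a group came from separate cultures, so differences are read against a spread between libraries that may be technical.

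The first peak inside the 70 Mb limit started at 71004262 (435 bp wide, 1.97-fold over the caller's local background) and 70989807 (727 bp, 1.70-fold) in the gCUX1 libraries. In the gHPRT libraries it started at 70997266 (495 bp, 1.65-fold) and 71032137 (910 bp, 1.75-fold). The last peak before the limit started at 68265841 (351 bp, 2.06-fold) and 44901169 (1450 bp, 1.70-fold) in gCUX1, and at 66329671 (423 bp, 1.74-fold) and 68277321 (1177 bp, 1.72-fold) in gHPRT. No listed peak thus started between 70 Mb and the first member, chr9:70989807, and the last member ended at 141052848.

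Over these 70.1 Mb, peaks covered 13.97% (replicate 1) and 18.9% (replicate 2) of the sequence in gCUX1 cells, against 22.05% and 21.3% in gHPRT cells. Both gCUX1 libraries lay below both gHPRT libraries, with means of 16.4% ± 3.49 and 21.7% ± 0.531 (SD, n = 2 each). The difference was -5.24 percentage points (two-sided exact permutation p = 0.333, which is as small as 2 against 2 libraries can give). The groups stood in the same order over the libraries as a whole, where peaks covered 13.96% and 19.3% of chromosomes 1 to 22 and X in gCUX1 and 22.8% and 22.4% in gHPRT. Coverage was among the values that chose the arm, so here and below its group differences are a description.

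Each list ended at 250000 peaks but at a different strength. The weakest listed peak had a −log10 p of 1.49 and 1.35 in gCUX1 and 1.25 and 1.27 in gHPRT. With 1 limit of 1.49 for all lists, the difference on 9q turned to 3.86 points higher in gCUX1, and with every list shortened to the same covered length it was 0.957 points higher. The order of the groups in covered length thus turned with the choice of limit, and group differences are given below under more than 1 reading.

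The arm fell into a sparse inner part and a dense outer part, separated by a step near 94 Mb. Comparing the mean coverage of the 5 Mb on each side of every 100-kb boundary, the largest rise lay at 93.8 Mb in gCUX1 replicate 1, at 94.1 Mb in gCUX1 replicate 2, and at 94.1 Mb in both gHPRT libraries. The same places were found when the whole arm was scanned. Mean coverage of the 5 Mb before and after that place was 7.01% and 19.3% in gCUX1 replicate 1, and 4.48% and 24.6% in gCUX1 replicate 2. It was 6.70% and 29.6% in gHPRT replicate 1, and 4.40% and 28.0% in gHPRT replicate 2. The step was thus present in every library, with the smallest height in gCUX1 replicate 1.

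**Figure D1:**
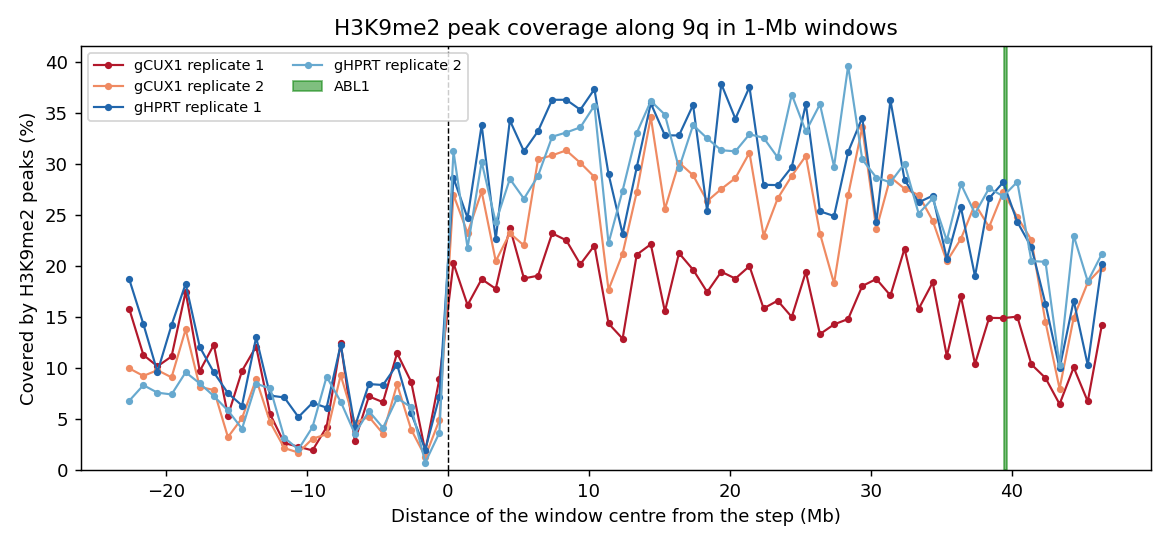
Percent of each 1-Mb window covered by H3K9me2 peaks (vertical axis) against the distance of the window centre from the step at 94.1 Mb (horizontal axis, Mb), 1 line per library, with the step as a dashed line and ABL1 as a green band. Left of the step no value is above 18.7%, and all 4 lines rise together at it and decline toward the end of the arm, with gCUX1 replicate 1 lowest over most of the dense part.

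The approach to the edge differed between libraries. In the window starting at 94000001, the last before the step, coverage was 19.8% and 6.56% in gCUX1 and 5.78% and 6.63% in gHPRT. In the next, starting at 94100001, it was 26.9% and 31.4% in gCUX1 and 35.8% and 28.1% in gHPRT. In gCUX1 replicate 1 coverage was already 23.6% in the window starting at 93800001 and 18.7% in the one after it. The window starting at 93900001 was covered 13.6% in gCUX1 replicate 2, and 29.7% and 13.8% in gHPRT. In gHPRT replicate 1 it thus stood as high as the dense part, with a sparse window between them, and with flanks of 2 Mb the step of that library lay at 93.9 Mb. Which genes lie at the step was not derived, because no hg19 annotation was used here.

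**Figure D2:**
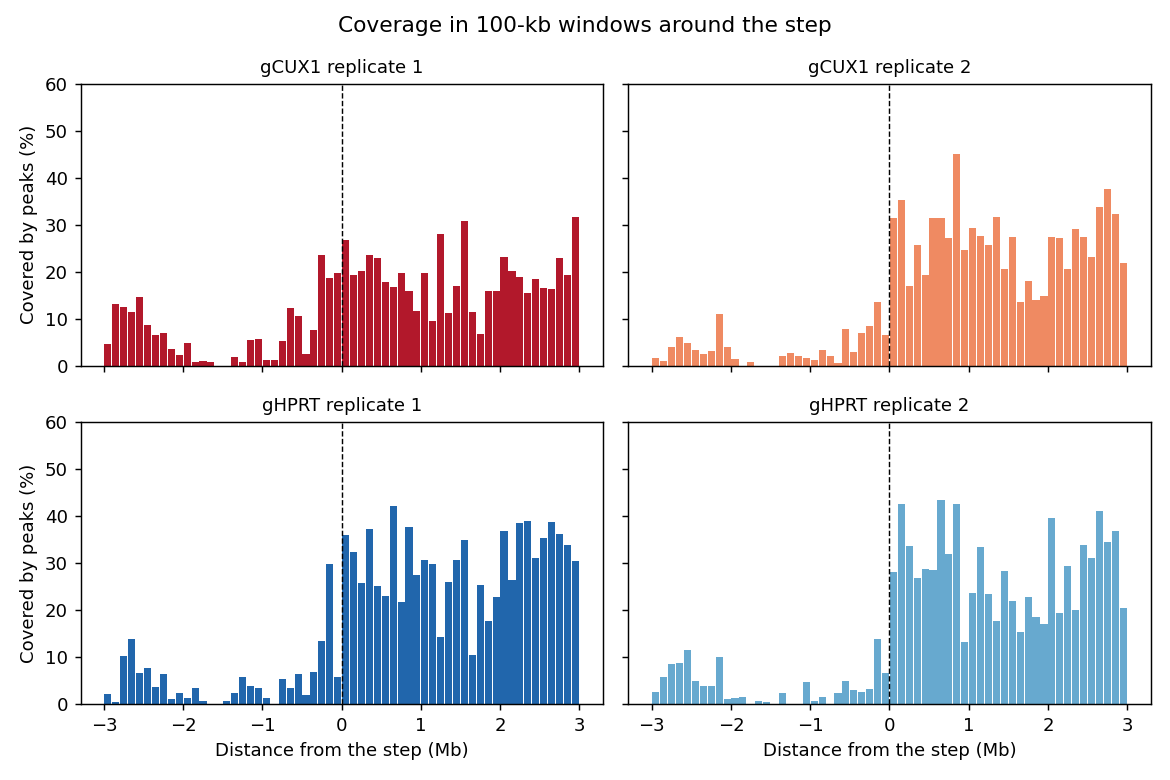
Percent of each 100-kb window covered by peaks (vertical axis) within 3 Mb of the step at 94.1 Mb (horizontal axis, Mb), 1 panel per library with the gCUX1 libraries above and the gHPRT libraries below. Coverage is lowest between 2 and 1 Mb before the step in every panel, and gCUX1 replicate 1 is already raised in the 3 windows before it.

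Below the step (chr9:70989807-94100000), peaks covered 8.40% and 6.18% in gCUX1 and 9.33% and 6.03% in gHPRT. The groups overlapped, and replicate 1 was the higher library of each group. Above it (chr9:94100001-141052848), peaks covered 16.7% and 25.2% in gCUX1 and 28.3% and 28.8% in gHPRT, with both gCUX1 libraries below both gHPRT libraries. The ratio of dense to sparse coverage was 1.99 and 4.07 in gCUX1 and 3.04 and 4.78 in gHPRT. The group difference in the log2 ratio was -0.42 with overlapping groups, and 0.10 without gCUX1 replicate 1. Under 1 common limit of −log10 p the ratio was 1.99 and 4.71 in gCUX1 and 5.34 and 7.15 in gHPRT, a log2 difference of -1.01 with both gCUX1 libraries below both gHPRT libraries. The groups overlapped again under 1 limit of −log10 q, at 2.62 and 6.29 in gCUX1 and 6.22 and 8.08 in gHPRT. At equal covered length they also overlapped, at 1.99 and 4.44 in gCUX1 and 4.25 and 6.17 in gHPRT.

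Peaks were both more numerous and wider above the step. Listed peaks numbered 64.8 and 43.6 per Mb below the step in gCUX1 and 42.5 and 35.6 per Mb in gHPRT. Above it they numbered 97.1 and 107.7 per Mb in gCUX1 and 98.1 and 102.0 per Mb in gHPRT. The median peak below the step was 993 and 1147 bp wide in gCUX1 and 1676.5 and 1348 bp in gHPRT. Above the step it was 1352 and 1902 bp in gCUX1 and 2423 and 2411 bp in gHPRT. Every library had more and wider peaks above the step, and both gCUX1 libraries had narrower peaks than both gHPRT libraries on each side. The median fold was 1.97 and 1.77 below and 1.95 and 1.78 above the step in gCUX1, and 1.73 and 1.71 below and 1.77 and 1.72 above it in gHPRT. These medians are taken over listed peaks, and the lists dropped weaker ones unevenly. Taking the serial numbers in the peak names as counting all peaks called, the listed share below the step was 58.2% and 56.8% in gCUX1 and 32.2% and 39.7% in gHPRT. Above it the share was 56.3% and 68.6% in gCUX1 and 60.4% and 66.4% in gHPRT. Medians of listed peaks therefore do not show that peaks of the 2 parts were equally strong. Among peaks with a −log10 p of at least 2, the ratio of dense to sparse coverage was 1.53 and 7.57 in gCUX1 and 5.96 and 12.5 in gHPRT, which is above the ratio over all listed peaks in 3 libraries and below it in gCUX1 replicate 1.

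**Figure D3:**
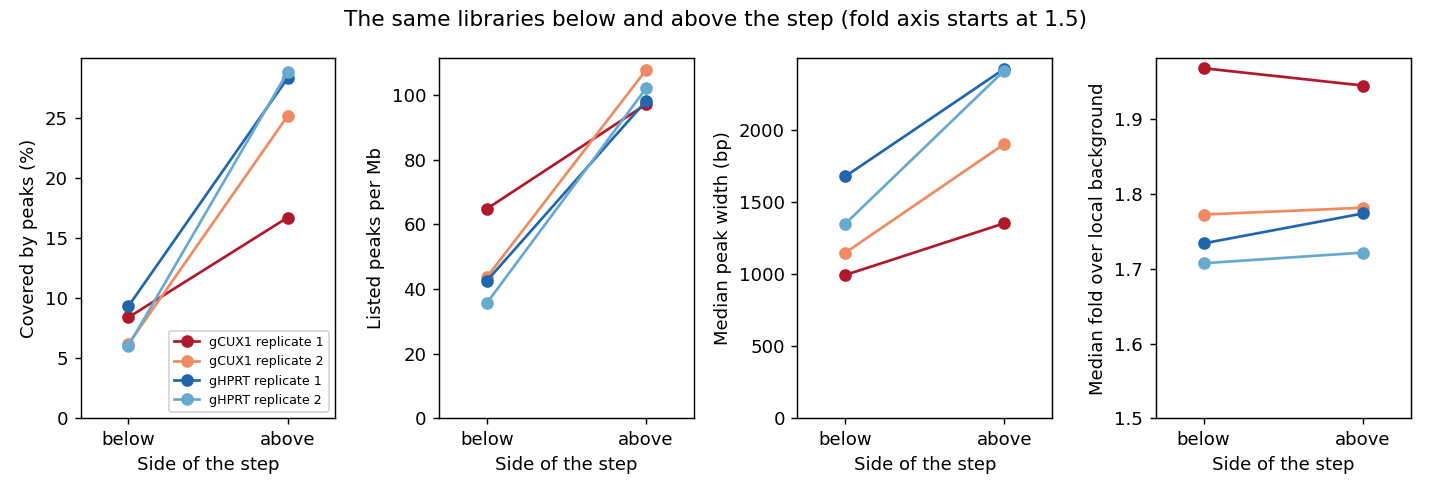
Each library below and above the step (horizontal axis), with percent covered, listed peaks per Mb, median peak width (bp) and median fold over the caller's local background on the vertical axes, and 1 coloured line per library. Coverage, number and width rise in all 4 libraries, while the lines of the median fold of listed peaks are nearly level. The fold axis starts at 1.5.

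Very broad peaks were rare below the step. Peaks of at least 5000 bp made up 1.14% and 1.19% of the peaks there in gCUX1 and 6.92% and 2.92% in gHPRT. Above the step they made up 2.44% and 7.65% in gCUX1 and 14.2% and 13.5% in gHPRT. The widest peak on the arm was chr9:122708945-122718884 (9940 bp) in gCUX1 replicate 1 and chr9:135287107-135300329 (13223 bp) in gCUX1 replicate 2. In gHPRT it was chr9:109052139-109072583 (20445 bp) in replicate 1 and chr9:120187693-120212423 (24731 bp) in replicate 2. All 4 lay in the dense part, at 4 different places.

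Within the sparse part, coverage varied from window to window in a pattern that the libraries shared in outline. The 23 full 1-Mb windows ranged from 1.85% to 17.5% in gCUX1 replicate 1 and from 1.33% to 13.8% in gCUX1 replicate 2. They ranged from 2.03% to 18.7% in gHPRT replicate 1 and from 0.759% to 9.61% in gHPRT replicate 2. The window starting at 92000001, just before the step, was the least covered of them, with 1.85% and 1.33% in gCUX1 and 2.03% and 0.759% in gHPRT. It held the longest stretch without a peak in any library, chr9:92522386-92686651 (164266 bp), and the third longest, chr9:92330481-92471797 (141317 bp). The second longest, chr9:133070545-133223293 (152749 bp), lay in the dense part, shortly before ABL1. Whether reads can map to these stretches was not checked, so they and the window at 92000001 need not lack the mark.

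The dense part was densest in its inner stretch and thinned out toward the end of the arm. Its 46 windows ranged from 6.49% to 23.8% and from 8.01% to 34.6% in gCUX1, and from 9.98% to 37.9% and from 10.3% to 39.7% in gHPRT. The window with the highest mean started at 108000001, with 22.2% and 34.6% in gCUX1 and 36.0% and 36.2% in gHPRT. The lowest started at 137000001, with 6.49% and 8.01% in gCUX1 and 9.98% and 10.3% in gHPRT. Over the 5 Mb from 100 Mb, coverage was 21.4% and 30.3% in gCUX1 and 35.7% and 32.8% in gHPRT. Over the 5 Mb from 135 Mb it was 8.55% and 15.7% in gCUX1 and 15.0% and 18.6% in gHPRT.

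The 4 libraries seldom marked the same bases. Peaks of all 4 libraries shared 0.696 Mb, or 0.993% of the arm, in 834 stretches, while 50.7% lay under no peak at all. Below the step all 4 shared 0.0770% of the sequence and 75.6% lay under no peak. Above it the shares were 1.44% and 38.4%. Denser coverage by itself brings more shared bases. The shared fraction of a pair of libraries, divided by the product of their coverages, was 1.80 to 2.26 below the step and 1.31 to 1.38 above it. The longest stretch common to all 4 was chr9:123665152-123669423 (4272 bp), followed by chr9:97061539-97065742 (4204 bp) and chr9:103215492-103219683 (4192 bp). The last common stretch before the step was chr9:91362430-91362761, and the first one beyond it began at 94100414, within the first window of the dense part.

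Sharing between libraries did not follow the groups. The Jaccard index of a pair, its common bases divided by all bases that either covered, was 0.145 for the gCUX1 pair and 0.210 for the gHPRT pair, and between 0.149 and 0.210 for the 4 mixed pairs. Both gCUX1 and neither gHPRT library covered 0.983 Mb of the arm, and both gHPRT and neither gCUX1 library covered 2.36 Mb. Below the step these lengths were 0.136 and 0.144 Mb, and above it 0.847 and 2.22 Mb. Bases under 1 mixed pair only came to 1.315 and 1.181 Mb of the arm for gCUX1 replicate 1 with gHPRT replicates 1 and 2. For gCUX1 replicate 2 they came to 1.931 and 2.096 Mb. The mixed pairs ranged from 0.121 to 0.239 Mb below the step and from 1.053 to 1.975 Mb above it. Such lengths depend on the coverage of each library, so they do not by themselves show a group difference.

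Single windows were compared between the groups with limma over the whole genome, and no window of 9q passed the adjusted p of 0.05. Of the 70 tested 1-Mb windows, 0 were called (9 had an unadjusted p under 0.05, and the smallest adjusted p was 0.147), against 4.17% of such windows genome-wide (4.1% lower and 0.0713% higher in gCUX1). Of the 694 windows of 100 kb, 0 were called (68 at an unadjusted p under 0.05, smallest adjusted p 0.0987), against 0.0981% genome-wide. Both gCUX1 libraries lay below both gHPRT libraries in 40 of the 70 1-Mb windows (57.1%), against 63.8% genome-wide. They lay above both in 1 of the 70, against 1.46%. Without gCUX1 replicate 2, a fit in which the lone gCUX1 library is assumed to vary like gHPRT, 42 of the 70 1-Mb windows were called (60%), against 61.7% genome-wide. In that fit 35 of the 694 100-kb windows were called (5.04%), against 8.4% genome-wide. Leaving out any of the others also left 1 library in a group, so calls from those fits are not read as a result about 9q.

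The counts are given for each side of the step, and the difference between the sides was not tested. Of the 100-kb windows, both gCUX1 libraries lay below both gHPRT libraries in 38 of 227 below the step and in 214 of 467 above it, against 43.3% genome-wide. They lay above both in 28 of 227 below the step and 12 of 467 above it, against 4.97% genome-wide. Group means of the 1-Mb windows were lower in gCUX1 in 13 of 23 below the step (median difference -0.23 points) and in 46 of 46 above it (median -7.57 points). With 1 limit of −log10 p they were higher in gCUX1 in 22 of 23 below (median 3.65 points) and in 45 of 46 above (median 3.79 points). At equal covered length they were higher in 21 of 23 below (median 2.90 points) and in 26 of 46 above (median 0.27 points). Over the 1-Mb windows of the whole genome, the median difference was -6.33 points in the lists as deposited. It was 3.37 points with 1 limit of −log10 p and 0.36 points at equal covered length. The medians above the step were thus near those of the genome under each reading.

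**Figure D4:**
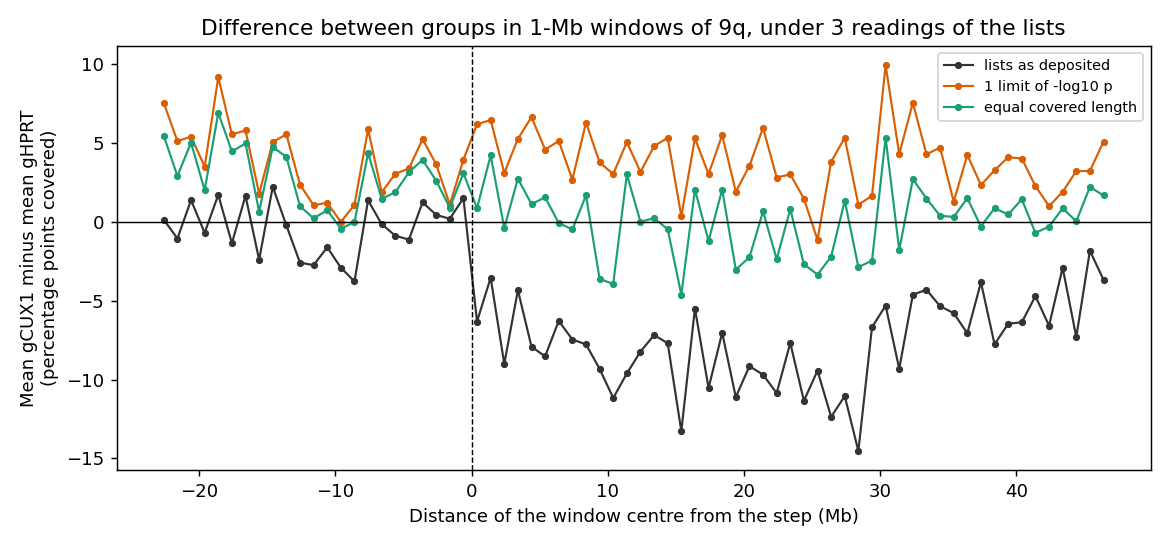
Mean percent covered in gCUX1 minus that in gHPRT (vertical axis, percentage points) in 1-Mb windows against the distance of the window centre from the step (horizontal axis, Mb), 1 line for each of 3 readings of the lists. The line for the lists as deposited drops below 0 right of the step, to -14.5 points at the lowest, while the line for 1 limit of −log10 p stays above 0 in 22 of 23 windows left and 45 of 46 right of it.

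In the lists as deposited, the windows with the smallest p in each direction sat on opposite sides of the step. For 1-Mb windows this placement carries no information, as gCUX1 means were lower in 46 of 46 above the step. The 100-kb window starting at 120100001 was covered 15.1% and 14.6% in gCUX1 and 40.8% and 40.9% in gHPRT (difference -25.97 points, limma adjusted p = 0.0987). The one starting at 122600001 was covered 12.0% and 20.1% in gCUX1 and 39.5% and 41.2% in gHPRT (limma adjusted p = 0.122), and the one starting at 114300001 was covered 20.5% and 20.3% in gCUX1 and 45.5% and 47.3% in gHPRT (limma adjusted p = 0.128). In all 3 the groups did not overlap in the lists as deposited. The same windows read with 1 limit of −log10 p gave differences that turned to 4.94 points in the window at 120100001 and 4.49 points in that at 114300001, both with gCUX1 higher, and that shrank to -6.02 points in that at 122600001. In the other direction, the window starting at 79200001 was covered 19.1% and 10.7% in gCUX1 and 6.53% and 0% in gHPRT (difference 11.6 points, limma adjusted p = 0.187). The one starting at 88200001 was covered 10.1% and 5.82% in gCUX1 and 1.164% and 0.931% in gHPRT (limma adjusted p = 0.230), and the one starting at 90200001 was covered 11.2% and 10.2% in gCUX1 and 2.56% and 4.60% in gHPRT (limma adjusted p = 0.333). Among the 1-Mb windows, the smallest p for a lower mean belonged to the one starting at 122000001, with 14.8% and 27.0% in gCUX1 and 31.2% and 39.7% in gHPRT (limma adjusted p = 0.147). The smallest for a higher mean belonged to the one starting at 79000001, with 9.75% and 5.11% in gCUX1 and 6.34% and 4.07% in gHPRT (limma adjusted p = 0.389), where the groups overlapped. The 3 windows of 100 kb in which gCUX1 was higher kept that direction with 1 limit of −log10 p, with differences of 11.7, 7.16 and 7.79 points. That limit took no peak from gCUX1 replicate 1, and the median difference of the 100-kb windows below the step was then 3.88 points. A kept direction in such windows therefore carries no information. None of these 8 windows passed the threshold.

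ABL1 (chr9:133589268-133763062, 173.8 kb) lay inside the dense part and was itself densely covered, at 17.7% and 41.0% in gCUX1 and 42.8% and 36.4% in gHPRT. The groups overlapped, and gCUX1 replicate 1 was far below the other 3 libraries. Peaks overlapping the gene numbered 18 and 25 in gCUX1 and 27 and 26 in gHPRT. A peak lay across the start of the gene in gCUX1 replicate 2 (chr9:133587375-133590824) and in gHPRT replicates 1 (chr9:133586660-133591318) and 2 (chr9:133585702-133591423), but none did in gCUX1 replicate 1. All 4 libraries shared 11677 bases of the gene, or 6.72% of it, against 0.993% of the arm. Denser coverage by itself brings more shared bases. The shared fraction of a pair of libraries, divided by the product of their coverages, was 1.38 to 1.78 in the gene and 1.54 to 1.74 over the arm. The longest such stretch within it was chr9:133616357-133618886 (2530 bp).

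Dense coverage did not end at ABL1. The 1 Mb after the gene was covered 16.9% and 30.9% in gCUX1 and 27.3% and 32.1% in gHPRT. The 1 Mb before it was covered 10.9% and 18.0% in gCUX1 and 19.2% and 18.4% in gHPRT, so every library was more densely covered after the gene, by 1.43 to 1.74 times. That 1 Mb before the gene includes chr9:133070545-133223293, which held no peak in any library. Whether reads can map to that stretch was not checked, and the ratio depends on it. Over longer distances the order turned. From the end of the gene to the last peak, coverage was 10.8% and 18.6% in gCUX1 and 18.1% and 21.2% in gHPRT. In the 5 Mb before the gene it was 13.1% and 21.6% in gCUX1 and 22.2% and 24.5% in gHPRT. The ratio of after to before was 0.82 and 0.86 in gCUX1 and 0.82 and 0.87 in gHPRT, so the groups overlapped. Under 1 common limit of −log10 p it was 0.825 and 0.848 in gCUX1 and 0.772 and 0.774 in gHPRT, a log2 difference of 0.11 without overlap. Under 1 limit of −log10 q the groups did not overlap either (0.825 and 0.892 in gCUX1, 0.818 and 0.780 in gHPRT). At equal covered length they overlapped, at 0.825 and 0.821 in gCUX1 and 0.771 and 0.846 in gHPRT. With a −log10 p of at least 2 they overlapped too (1.19 and 0.719 in gCUX1, 0.717 and 1.00 in gHPRT).

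The fold of the peaks changed sharply inside ABL1, at nearby places in all 4 libraries. At each gap between neighbouring peaks of the arm, the mean fold of the 10 peaks before it was compared with that of the 10 after it, a scan chosen after the values around ABL1 had been seen. The largest fall of the whole arm lay inside ABL1 in every library, and in every library again with 20 peaks on each side. With 5 peaks on each side it did so in gHPRT replicate 2 only. In gCUX1 it lay between chr9:133596118 and 133613794 in replicate 1 (mean fold 2.01 before and 1.63 after) and between 133602846 and 133607187 in replicate 2 (1.90 before and 1.53 after). In gHPRT it lay between 133602026 and 133607277 in replicate 1 (1.83 before and 1.52 after) and between 133601158 and 133607477 in replicate 2 (1.84 before and 1.52 after). These 4 gaps, found with 10 peaks on each side, overlap one another between 133602846 and 133607187, which is 13.6 to 17.9 kb into the gene. With 20 peaks there was no common place. The fall then lay between 133590824 and 133601821 in gCUX1 replicate 2 and between 133609677 and 133611648 in gHPRT replicate 1. With 1 limit of −log10 p and 10 peaks, it lay between 133612299 and 133616282 in gHPRT replicate 2.

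The few peaks of ABL1 before the fall found with 10 peaks on each side had folds like those of the neighbouring sequence. Most of the many after it had lower folds. Before it, gCUX1 replicate 1 had 1 peak with a fold of 2.12 and gCUX1 replicate 2 had 2 with folds of 1.70 and 1.93. The gHPRT libraries had 2 each, with folds of 1.72 and 1.93 in replicate 1 and 1.76 and 1.81 in replicate 2. After it, the median fold was 1.64 over 17 peaks and 1.49 over 23 peaks in gCUX1, and 1.51 over 25 peaks and 1.45 over 24 peaks in gHPRT. The peak with the smallest p in the gene, chr9:133741167-133742787 in gHPRT replicate 2, had a −log10 p of 6.10 at a fold of 2.12.

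The dense peaks of low fold went on beyond the end of ABL1. The 5 windows of 100 kb from chr9:133600001 to 134100000, chosen after their values were seen, were covered 20.4% and 45.9% in gCUX1 and 46.1% and 43.3% in gHPRT. The 1 Mb before them was covered 10.9% and 17.9% in gCUX1 and 19.2% and 18.4% in gHPRT, and the 1 Mb after them 14.1% and 21.7% in gCUX1 and 21.2% and 25.1% in gHPRT. The 1 Mb before them includes the same stretch without a peak, chr9:133070545-133223293. The median fold in the 5 windows was 1.70 and 1.49 in gCUX1 and 1.52 and 1.42 in gHPRT, against 1.97 and 1.81 in gCUX1 and 1.78 and 1.72 in gHPRT over the 1 Mb before. Their median −log10 p was nevertheless no lower, at 1.73 and 1.71 in gCUX1 and 1.51 and 1.55 in gHPRT, against 1.69 and 1.57 in gCUX1 and 1.44 and 1.47 in gHPRT over the 1 Mb before.

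The far edge of this block was less uniform. Within 1 Mb after ABL1, the largest rise of fold by the same scan lay between 134152229 and 134153363 in gCUX1 replicate 1 and between 134142983 and 134144931 in gCUX1 replicate 2. It lay between 134087983 and 134093306 in gHPRT replicate 1 and between 134151411 and 134153750 in gHPRT replicate 2. In 3 libraries these rises lay close together and were the largest of the whole arm. In gHPRT replicate 1 the rise was 0.176, smaller than one of 0.233 between 132980791 and 132986617, before ABL1. The scan thus gave no distinct far edge in gHPRT replicate 1.

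**Figure D5:**
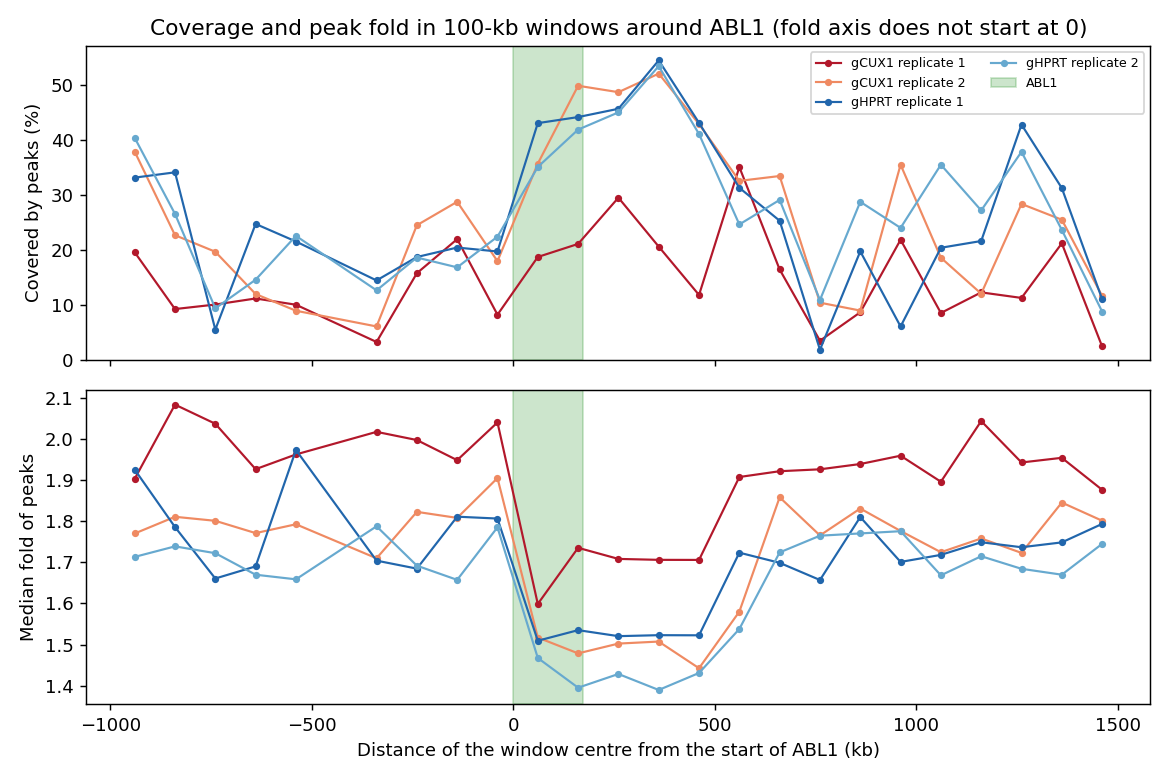
Percent covered (upper panel) and median fold of the peaks (lower panel) in 100-kb windows against the distance of the window centre from the start of ABL1 (horizontal axis, kb), 1 line per library, with ABL1 as a green band. Fold falls in all 4 libraries at the gene and returns beyond the block, while coverage rises in 3 libraries and little in gCUX1 replicate 1. The fold axis does not start at 0.

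Folds as low as these were rare in the genome. In each library, the highest median fold among the 5 windows was 1.74 and 1.52 in gCUX1 and 1.54 and 1.47 in gHPRT. Windows of 100 kb with a median that low made up 0.118% and 0.145% of all windows in gCUX1 and 0.0476% and 0.103% in gHPRT. Only 10 windows of 26333 with peaks in all 4 libraries were that low in every library at once. The 5 of the block were among them by construction. The other 5 were 2 on chromosome 22, starting at 23100001 and 23300001, and 3 on chromosome 13, starting at 81300001, 91900001 and 92100001. All 10 thus lay on chromosomes 9, 13 and 22, and DNA copy number there is not measured in these files.

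The block was also more fully represented in the lists than the sequence around it in 3 libraries. The peaks listed were 49.5% and 86.5% of the peak numbers in the block in gCUX1 and 90.5% and 92.2% in gHPRT. Over the 1 Mb before it they were 59.4% and 67.2% in gCUX1 and 50.7% and 60.5% in gHPRT. The lower coverage of the block in gCUX1 replicate 1 thus went with a lower listed share there. With 1 limit of −log10 p, the block was covered 20.4% and 35.4% in gCUX1 and 25.4% and 24.4% in gHPRT. The groups overlapped under both readings, and the difference of means was 3.00 points there against -11.6 points in the lists as deposited.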

How the data were processed

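Members and gene lists were chosen with earlier results of these data known. The submitters' processing notes name hg19 and, with no role or order, deepTools 3.5.1, MACS2 2.1.0, SAMtools 1.16.1 and BWA 0.7.17. Broad peaks were deposited by the authors as a separate list for each library. Settings and any background library are not given in the sources used here. Peak names hold the tags "sub" in gHPRT replicate 1 and "cux1kd" in gCUX1, which the labels do not explain. Each deposited peak has the authors' −log10 p-value and −log10 q-value, a score that is that −log10 p times 10 without decimals, and a fold, the ratio to local background. These were used only to describe, rank or filter peaks.

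Coverage is the share of bases under peaks. Windows of 100 kb and 1 Mb on chromosomes 1 to 22 and X with a mean of at least 1% were fitted with limma 3.58.1 (R 4.3.3, trend, Benjamini-Hochberg over all windows). The fit was also run on simulated libraries with independent windows and the spread of the gHPRT pair. That run does not cover the wider spread between the gCUX1 libraries. Neighbouring windows are not independent. Named windows were the 5 highest and lowest in coverage, those around the step and ABL1, and, as none was called, the 3 with the smallest p in each direction and size, of which the report gives all of 100 kb and the first of 1 Mb. Group means of single values were compared by exact permutation. Serial numbers in the names were taken to count every called peak, which no source states. Alternatives were other limits, width and gap rules, scalings and left-out libraries. RefSeq annotation of another build gave no coordinates here, so the gene lists were not used.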

Additional observations from a re-analysis of the deposited data

How the results depend on the processing

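Group differences in coverage (gCUX1 minus gHPRT) are in percentage points. With 1 limit of −log10 p they turned to 3.86 on the arm, 3.86 below the step, 3.86 above it and 3.02 from ABL1 to the last peak. With 1 limit of −log10 q they turned to 3.76, 2.25, 4.50 and 2.40, at equal covered length to 0.957, 2.81, 0.0422 and 0.554, and with a −log10 p of at least 2 to 0.441, 0.440, 0.441 and 0.298, in the same order. Divided by the coverage of the library, a scaling chosen after the data were seen, the difference was 0.0317 on the arm and 0.122 below the step, as ratios. It stayed negative above the step (-0.0128) and from ABL1 to the last peak (-0.00102). Without peaks narrower than 2000 bp or with gaps filled, all 4 stayed negative.

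Leaving out 1 library gave -7.71 to -2.78 on the arm, -2.04 to 1.26 below the step (0.722 without gCUX1 replicate 2 and 1.26 without gHPRT replicate 1), -11.9 to -3.41 above it and -9.14 to -0.97 from ABL1 onward. The log2 ratio across the step then ranged from -0.94 to 0.10, and that across ABL1 from -0.0367 (without gHPRT replicate 1) to 0.0443, with -0.0285 without gCUX1 replicate 2. Called windows of 9q ranged from 0 to 35 (100 kb) and from 0 to 42 (1 Mb), where the highest came without gCUX1 replicate 2 and stood against 8.4% and 61.7% called genome-wide. The step moved to 93.8 Mb with a −log10 p of at least 2 and with flanks of 2 Mb. The mean share of peaks overlapping in another library was 48.6% by 1 bp and 13.2% over 50% of both peaks. Listed peaks per Mb were 6.55 higher in gCUX1, but peak numbers per Mb differed by -1.01. The position of the fall of fold moved to a median of 105.1 Mb with 5 peaks on each side, and stayed inside ABL1 with 20 peaks, with 1 limit of −log10 p and without any 1 library.

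With the replicate number as a block, 2 windows of 1 Mb (2.86%, against 8.16% genome-wide) and 0 of 100 kb (against 0.625%) were called on 9q, and the differences in coverage kept their values. Deviations of same-numbered libraries correlated by 0.175 (1 Mb) and 0.0561 (100 kb). With 2 pairs only, this cannot tell whether same-numbered libraries share more than a number. The causes of these changes were not tested. Read depth is unknown, so no limit of detection can be given.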
